A study of Mus musculus with 13 samples.

Results

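Genes that normally work in eggs, sperm and their precursors were followed in neuroblastoma, a cancer of the sympathetic nervous system, arising in 3 kinds of transgenic mice. The 10 germ cell genes were Rec114, Nxf3, Morc1, Gpat2, Sycp1, Sycp3, Hormad1, Dazl, Mael and Stag3, out of 18193 genes measured. They were chosen by their measured expression in these arrays, around Rec114, Nxf3, Morc1 and Gpat2, whose log2 values were high in tumours, and the other 6 were added as further meiosis and piRNA genes for contrast. All their probe sets were used, 12 of the 34945 that carry a single gene symbol, with 2 for Rec114, 2 for Dazl and 1 for each of the others.

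Affymetrix arrays were run on tumours carrying a transgene for mutated ALK (mutALK, n = 3 arrays), whose product is a receptor kinase, for the transcription factor MYCN (n = 4) or for MYCN AND mutated ALK (double transgenic, n = 3), and on adrenal glands of normal mice (n = 3). All animals had a C57BL/6 background, and the transgenes were expressed specifically in the neural crest. Tumour mice were killed once a tumour could be felt. The promoter of the transgenes, the ALK mutation, the number of transgenic lines and the ages of the mice are not given in the sources used here. Whether the arrays come from separate animals is not stated, so p-values measure the spread between these arrays, which may be partly technical. In the titles, mutALK 2 and mutALK 3 share a number, as do MYCN 2 and MYCN 3, and what the number stands for is not stated. The double transgenic arrays have sample numbers set apart from those of the other groups. Whether all arrays were run and processed together is not stated. A processing difference between the double transgenic arrays and the others could not be told apart from genotype. In RNA of whole tissue, fewer cells that express a gene and less RNA per cell cannot be told apart.

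REC114 belongs to the protein complex that lets SPO11 cut chromosomes at the start of meiosis. SYCP3 and HORMAD1 form the axis on which the chromosome loops are anchored, SYCP1 ties the paired axes together, and STAG3 is a cohesin subunit used in meiosis. GPAT2, MAEL and MORC1 are needed in the male germ line of mice to keep transposons silent, for GPAT2 and MAEL through piRNAs, and DAZL binds messenger RNAs in germ cells. Many genes of this kind are kept off in body tissues by DNA methylation of their promoters and by a repressor complex that holds E2F6, MGA and MAX, and some are known to be expressed in tumours.

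The tissue labels were checked first. The mean over 8 adrenal cortex genes was 4.75 to 6.87 in the 10 tumours and 12.03 to 13.25 in the adrenal glands. The mean over 9 sympathetic and chromaffin genes was 9.24 to 11.95 in the tumours and 8.77 to 10.65 in the adrenal glands. In 5 arrays, namely mutALK 1, mutALK 3, MYCN 2, double transgenic 1 and adrenal 2, the mean over 13 liver genes was 8.75 to 12.18, against 4.23 to 5.80 in all others, and these are called the liver arrays below. Xist and Y-linked genes gave 4 female and 6 male tumour arrays and 3 female adrenal arrays. Female and male arrays numbered 2 and 1 in mutALK, 1 and 3 in MYCN and 1 and 2 in double transgenic tumours. Sex was therefore unbalanced between the groups.

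Expression is given in log2 units as deposited, so that a difference of 1 is a change of 2-fold, and groups are given as mean ± SD. Detection calls were not used. As a gauge of background, 71 olfactory and vomeronasal receptor genes had a median of 3.65 and a 95th percentile of 5.45, while the median over all genes was 7.13. A difference against a group that lies under 5.45 may understate the change, because values there are held up by background.

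The 10 genes fell into a few patterns. Sycp1, Hormad1, Dazl and Mael stayed under 5.45 in all 13 arrays. Rec114 and Nxf3 lay above it in all 10 tumours and under it in all 3 adrenal glands. Morc1 lay above it in the 4 MYCN tumours alone, and Gpat2 in the 4 MYCN tumours and adrenal 2. Stag3 lay above it in all MYCN and double transgenic tumours and in no mutALK tumour or adrenal gland. Sycp3 lay above it in the 3 adrenal glands and in no tumour.

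**Figure D1:**
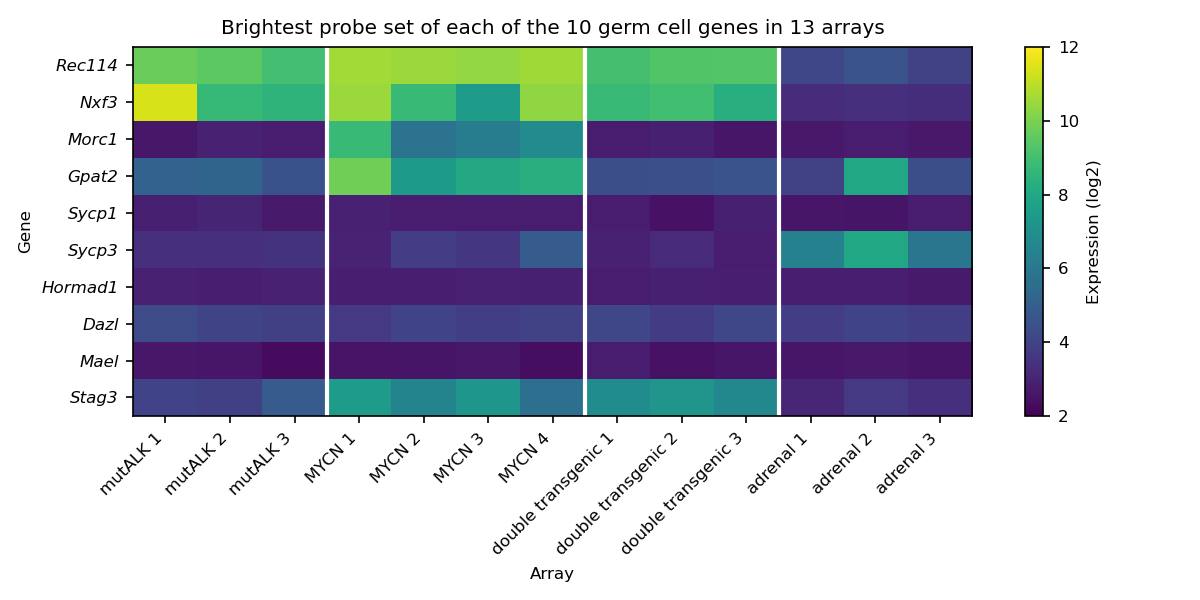
Colour gives the log2 expression of the brightest probe set of each of the 10 germ cell genes (rows) in each of the 13 arrays (columns), with white lines between the groups. Rec114 and Nxf3 are bright in all tumours (7.53 to 11.40), Morc1 is bright in the 4 MYCN tumours (5.81 to 8.76), and Sycp1, Hormad1 and Mael are dark throughout (2.30 to 3.04).

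Promoter windows of 300 bases, from 250 before to 50 after the start site, were taken from the RefSeq table of mouse build GRCm38.p6, which held a window for 8 of the 10 genes. Letters matching GCGGGA, the core of the site that E2F6 binds, and CACGTG, the E-box that MYC, MAX and MGA proteins bind, were searched on both strands, where GCGGGA reads TCCCGC on the other strand, CACGTG is its own complement and the motifs share no overlap in these windows. GCGGGA was found in 7 of the 8 genes, against 20.0% of all 32851 windows. CACGTG was found in 6 of the 8, against 7.15% of windows, and the same 6 held both motifs, against 1.99% of windows. The windows held 12 to 30 CpG pairs, against a median of 7 and a 75th percentile of 20 over all windows. Both motifs contain CG, and the shares over all windows were not matched for CpG count. The 8 windows include those of genes under 5.45 here, and binding in these tissues was not measured. The sequences below are shown for 3 genes expressed in tumours (Rec114, Gpat2, Stag3), for Sycp3, which was higher in adrenal gland, and for Hormad1, which stayed under 5.45 in every array. They run 5′ to 3′ on the strand of the gene, with both motifs in capitals. The start sites of the Rec114 and Stag3 windows lie inside the annotated spans of these genes, 81147 and 7995 bases from the annotated 5′ ends, and those of the other 3 within 45 bases of theirs. The windows lie at chr9:58741510-58741809 on the minus strand for Rec114, chr2:127424949-127425248 on the plus strand for Gpat2, chr5:138280259-138280558 on the plus strand for Stag3, chr10:88459337-88459636 on the plus strand for Sycp3 and chr3:95559427-95559726 on the plus strand for Hormad1.
Rec114: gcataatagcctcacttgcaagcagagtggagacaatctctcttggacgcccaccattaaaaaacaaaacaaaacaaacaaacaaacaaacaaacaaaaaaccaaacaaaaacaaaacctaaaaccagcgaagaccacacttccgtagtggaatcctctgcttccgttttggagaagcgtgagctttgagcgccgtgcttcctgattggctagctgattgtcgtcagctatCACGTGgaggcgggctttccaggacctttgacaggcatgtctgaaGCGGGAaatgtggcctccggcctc
Gpat2: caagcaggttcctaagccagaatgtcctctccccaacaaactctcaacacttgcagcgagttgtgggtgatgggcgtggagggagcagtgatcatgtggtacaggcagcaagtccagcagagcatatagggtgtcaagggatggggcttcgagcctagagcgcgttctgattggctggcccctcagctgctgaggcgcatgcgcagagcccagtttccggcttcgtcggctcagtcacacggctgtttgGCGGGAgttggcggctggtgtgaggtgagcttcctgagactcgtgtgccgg
Stag3: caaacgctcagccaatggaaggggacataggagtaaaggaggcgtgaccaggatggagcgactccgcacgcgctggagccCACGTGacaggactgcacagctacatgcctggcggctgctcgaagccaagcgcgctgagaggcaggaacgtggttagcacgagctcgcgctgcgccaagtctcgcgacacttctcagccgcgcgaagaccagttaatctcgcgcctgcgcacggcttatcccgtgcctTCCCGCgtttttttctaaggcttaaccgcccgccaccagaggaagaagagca
Sycp3: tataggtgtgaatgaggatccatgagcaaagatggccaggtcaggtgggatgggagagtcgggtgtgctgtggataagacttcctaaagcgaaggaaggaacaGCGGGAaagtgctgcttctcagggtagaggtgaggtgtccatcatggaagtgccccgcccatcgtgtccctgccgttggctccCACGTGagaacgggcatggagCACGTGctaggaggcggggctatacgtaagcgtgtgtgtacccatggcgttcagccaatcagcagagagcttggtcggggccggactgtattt
Hormad1: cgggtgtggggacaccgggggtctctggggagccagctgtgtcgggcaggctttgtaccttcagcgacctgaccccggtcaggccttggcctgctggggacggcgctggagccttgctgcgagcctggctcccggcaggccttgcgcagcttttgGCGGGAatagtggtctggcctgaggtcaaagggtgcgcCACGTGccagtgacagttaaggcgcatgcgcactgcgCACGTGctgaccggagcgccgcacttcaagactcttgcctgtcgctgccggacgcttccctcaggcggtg
Counted from the start site, with negative numbers before it, the E-box letters begin at -19 and the E2F6 core at 27 in the Rec114 window. The Gpat2 window holds the E2F6 core at -1 and no E-box letters. The E-box letters begin at -170 in Stag3, at -64 and -43 in Sycp3 and at -57 and -20 in Hormad1.

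Rec114, on chromosome 9 (58652856 to 58822706), was higher in MYCN tumours than in the other 2 tumour groups. It measured 9.71, 9.48 and 9.01 in the mutALK tumours, 10.63, 10.49, 10.39 and 10.59 in the MYCN tumours, 9.05, 9.27 and 9.31 in the double transgenic tumours and 4.14, 4.57 and 3.95 in the adrenal glands. Every tumour lay far above every adrenal gland, and the 4 MYCN tumours lay above the other 6 tumours. Relative to adrenal gland, Rec114 was 5.18 ± 0.19 (SE) higher in mutALK, 6.31 ± 0.18 in MYCN tumours and 4.99 ± 0.19 in double transgenic tumours, values for which the gene was chosen and which were not tested. A second Rec114 probe set, of a type marked by the manufacturer as able to catch other transcripts, read 7.59 to 7.94 in mutALK, 8.81 to 8.99 in MYCN and 7.52 to 7.85 in double transgenic tumours, and 4.60 to 5.37 in adrenal glands. It was dimmer in the tumours and ordered the groups in the same way.

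Between the tumour groups, Rec114 was lower in mutALK than in MYCN tumours by -1.12 ± 0.18 (SE), or 2.18-fold, with a limma adjusted p over all genes of 0.0007565. It was lower in double transgenic than in MYCN tumours by -1.32 ± 0.18, with an adjusted p of 0.001584. Double transgenic minus mutALK was -0.19 ± 0.19, which was not called (adjusted p = 0.5765). The second probe set gave -1.11 ± 0.17 for mutALK minus MYCN and -1.24 ± 0.17 for double transgenic minus MYCN, with adjusted p of 0.0006409 and 0.001258. The SD of Rec114 was 0.36 in mutALK, 0.10 in MYCN tumours and 0.14 in double transgenic tumours.

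Of the partners of REC114 in cutting chromosomes, 4 were measured, and Top6bl and Iho1 were not analysed here. Mei1, a further factor needed for these cuts, measured 3.99, 4.10 and 4.03 in mutALK tumours, 3.77 to 4.21 in MYCN tumours, 3.76 to 3.91 in double transgenic tumours and 3.76 to 4.09 in adrenal glands. Spo11, the enzyme that makes the cut, stayed between 3.98 and 4.53 in all 13 arrays, and Ankrd31, a protein that binds REC114, between 2.56 and 3.05. Mei4 reached 5.59, above 5.45, in mutALK 2 and 5.04 in MYCN 3 and was 2.87 to 4.53 elsewhere. None of these 4 genes was called in any of the 6 comparisons, in which 12.8% to 50.2% of all genes were called. Apart from Mei4 in mutALK 2, their values lay under 5.45, where changes may be understated.

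**Figure D2:**
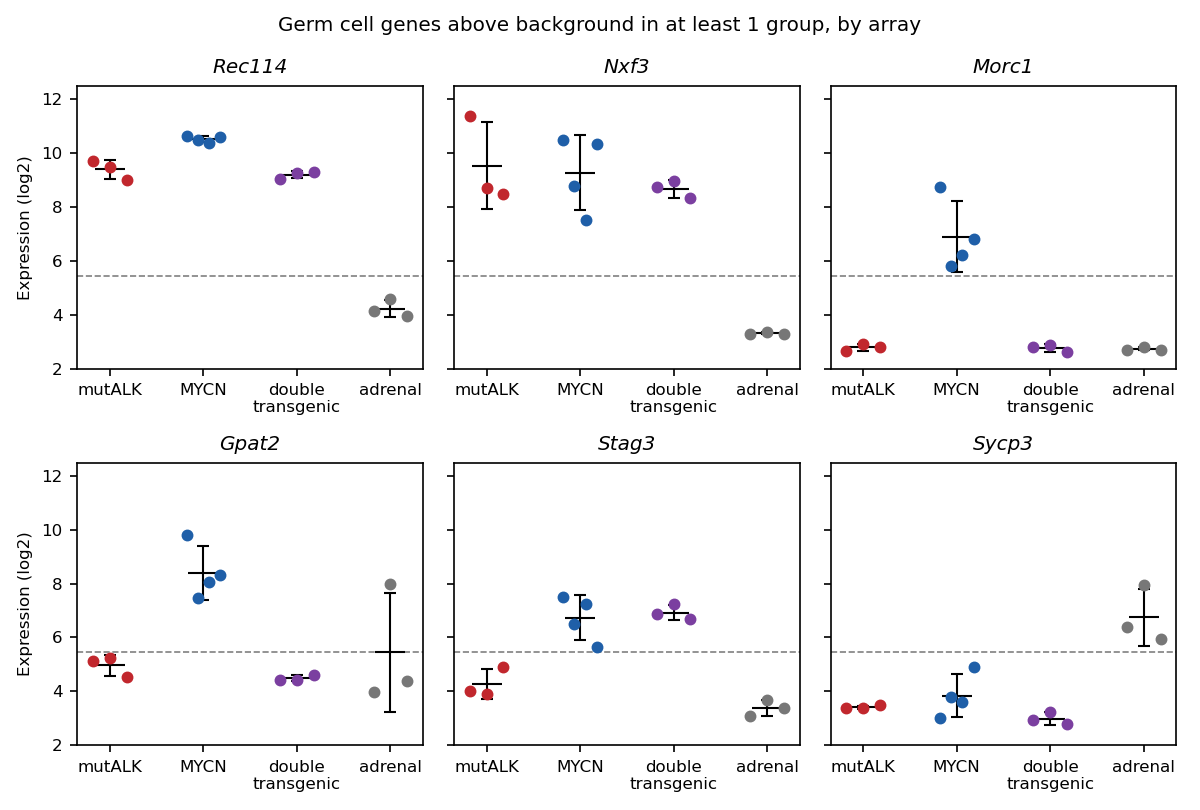
Each point is the log2 expression of 1 array (y axis) for the 6 germ cell genes above background in at least 1 group, with bars at the mean ± SD of mutALK (n = 3), MYCN (n = 4), double transgenic (n = 3) and adrenal gland (n = 3). The dashed line marks 5.45, the 95th percentile of the receptor genes, and Morc1 crosses it in MYCN tumours alone.

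The 3 axis and synaptonemal complex genes lay under 5.45 in every tumour. Sycp3, which forms the chromosome axis, measured 3.37, 3.37 and 3.47 in mutALK, 3.01, 3.80, 3.59 and 4.92 in MYCN and 2.93, 3.23 and 2.78 in double transgenic tumours, against 6.38, 7.95 and 5.94 in adrenal glands. Each adrenal gland was higher than each tumour. The difference from adrenal gland was -3.35 ± 0.51 (SE) in mutALK, -2.92 ± 0.47 in MYCN tumours and -3.77 ± 0.51 in double transgenic tumours. The highest of these values, 7.95, came from adrenal 2, a liver array. The liver arrays among the tumours read 3.37 (mutALK 1), 3.47 (mutALK 3), 3.80 (MYCN 2) and 2.93 (the array double transgenic 1). Without adrenal 2 the 3 differences were -2.75, -2.33 and -3.18. Among the tumours Sycp3 was not called, with -0.43 ± 0.47 for mutALK minus MYCN, -0.85 ± 0.47 for double transgenic minus MYCN and -0.42 ± 0.51 for double transgenic minus mutALK.

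Sycp1, the transverse filament of the synaptonemal complex, ranged from 2.48 to 3.04 and Hormad1, which marks unpaired axes, from 2.71 to 2.90 over the 13 arrays. Both lay under the receptor median of 3.65 in every array, and no difference between tumour groups was called for either. Their largest difference between tumour groups was -0.17 ± 0.12 (SE), for Sycp1 in double transgenic minus mutALK.

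Stag3, the meiotic cohesin subunit on chromosome 5 (138272514 to 138312397), separated mutALK tumours from the other tumours. It measured 4.0, 3.89 and 4.89 in mutALK, 7.51, 6.51, 7.25 and 5.65 in MYCN and 6.87, 7.23 and 6.66 in double transgenic tumours, and 3.09, 3.67 and 3.37 in adrenal glands. All MYCN and double transgenic tumours lay above all mutALK tumours, and the MYCN and double transgenic ranges overlapped. Stag3 was lower in mutALK than in MYCN tumours by -2.47 ± 0.40 (SE), or 5.53-fold, with a limma adjusted p of 0.0008635. It was higher in double transgenic than in mutALK tumours by 2.66 ± 0.43, or 6.32-fold, with an adjusted p of 0.00398. Double transgenic minus MYCN was 0.19 ± 0.40 and was not called (adjusted p = 0.8211). Against adrenal gland the untested differences were 0.89 ± 0.43 in mutALK, 3.35 ± 0.40 in MYCN tumours and 3.55 ± 0.43 in double transgenic tumours. Stag1, the cohesin subunit that takes the place of STAG3 in body cells, was called higher in all 3 comparisons with adrenal gland, by 0.44, 1.09 and 1.12 in the mutALK, MYCN and double tumours, and was 8.96 to 10.44 in every array.

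Gpat2, an acyltransferase relative that acts with piRNA proteins in mouse testis, was high in MYCN tumours. It measured 5.13, 5.23 and 4.51 in mutALK, 9.81, 7.45, 8.05 and 8.31 in MYCN and 4.40, 4.42 and 4.60 in double transgenic tumours, and 3.97, 7.99 and 4.40 in adrenal glands. The MYCN tumours did not overlap with the other tumours, and adrenal 2 lay among the MYCN values. The difference was -3.45 ± 0.83 (SE) for mutALK minus MYCN and -3.93 ± 0.83 for double transgenic minus MYCN. No test is given for either, because Gpat2 was chosen for high tumour values, which among tumours the MYCN group alone held. Double transgenic minus mutALK was -0.48 ± 0.88 and was not called.

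The comparison of Gpat2 with adrenal gland rested on adrenal 2. With all arrays the untested differences were -0.49 ± 0.88 in mutALK, 2.95 ± 0.83 in MYCN tumours and -0.98 ± 0.88 in double transgenic tumours, and without adrenal 2 they were 0.77, 4.22 and 0.29. Adrenal 2 had a liver list mean of 10.83. Of the other liver arrays, mutALK 1, mutALK 3 and double transgenic 1 (means of 11.09, 9.67 and 12.18) read 5.13, 4.51 and 4.40 for Gpat2, and MYCN 2 (mean of 8.75) read 7.45, the lowest of its group. The part of liver RNA in the value of adrenal 2 was not tested. Gpat3 and Gpam belong to the same family of glycerol-3-phosphate acyltransferases and make lipid precursors in body cells. Gpat3 was lower than in adrenal gland by -3.94, -3.64 and -3.83 in the mutALK, MYCN and double tumours, and Gpam by -2.76, -3.09 and -2.49, all 6 called.

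Mael, a piRNA pathway protein, ranged from 2.30 to 2.75 and was under the receptor median in every array. Dazl read 3.64 to 4.31 with its brighter probe set and 2.82 to 3.56 with the other, close to that median. Neither gene was called between any tumour groups. The brighter Dazl probe set gave 0.22 ± 0.14 (SE) for mutALK minus MYCN, and the other one gave 0.38 ± 0.16 for double transgenic minus MYCN.

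Morc1, a germ line ATPase on chromosome 16 (48431237 to 48630905), lay above 5.45 in MYCN tumours and in no other group. It measured 2.66, 2.92 and 2.80 in mutALK, 8.76, 5.81, 6.23 and 6.83 in MYCN and 2.81, 2.89 and 2.61 in double transgenic tumours, and 2.70, 2.80 and 2.70 in adrenal glands. Every MYCN tumour lay above every other array, and the other 3 groups overlapped. The difference was -4.11 ± 0.52 (SE) for mutALK minus MYCN and -4.14 ± 0.52 for double transgenic minus MYCN. No test is given for either, because Morc1 was chosen for high tumour values and only the MYCN tumours held such values. Double transgenic minus mutALK was -0.03 ± 0.56 and was not called, with both groups under the receptor median. MYCN minus adrenal, not tested, was 4.17 ± 0.52.

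Morc1 and Gpat2 ranked the MYCN tumours alike, MYCN 1 highest, then MYCN 4, MYCN 3 and MYCN 2. Within the group they spanned 5.81 to 8.76 and 7.45 to 9.81, while Rec114 spanned 10.39 to 10.63. MYCN 2, the lowest for both genes, was the liver array of its group, with a liver list mean of 8.75 against 4.38 to 5.57 in the other 3, and the part of this in the order was not tested. Without the 5 liver arrays Morc1 was -4.35 for mutALK minus MYCN and -4.52 for double transgenic minus MYCN, and Gpat2 -3.49 and -4.21, with 1 mutALK and 2 double transgenic arrays left.

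Nxf3, an X-linked member of a family of RNA export factors, had an SD of 1.62 in mutALK, 1.40 in MYCN tumours and 0.33 in double transgenic tumours. It measured 11.40, 8.70 and 8.50 in mutALK, 10.49, 8.78, 7.53 and 10.33 in MYCN and 8.74, 8.97 and 8.33 in double transgenic tumours, and 3.27, 3.35 and 3.30 in adrenal glands. Every tumour lay above every adrenal gland, and the 3 tumour groups overlapped. The untested differences from adrenal gland were 6.23 ± 0.82 (SE) in mutALK, 5.98 ± 0.77 in MYCN tumours and 5.38 ± 0.82 in double transgenic tumours. Between tumours mutALK minus MYCN was 0.25 ± 0.77, double transgenic minus MYCN -0.60 ± 0.77 and double transgenic minus mutALK -0.86 ± 0.82, none of them called (limma adjusted p 0.8585, 0.6813 and 0.5569). Without mutALK 1 the difference of mutALK minus MYCN turned to -0.68 and that of double transgenic minus mutALK to 0.08. Of the 3 highest tumours, mutALK 1 and MYCN 4 were female and MYCN 1 was male. The female tumours mutALK 1, mutALK 2, MYCN 4 and double transgenic 1 read 11.40, 8.70, 10.33 and 8.74, and the male tumours 7.53 to 10.49. With sex as a covariate mutALK minus MYCN was -0.18, and the part of sex in the level of Nxf3 was not tested. Among relatives of Nxf3, Nxf2, also X-linked and active in testis, stayed at 3.88 to 4.69 and Nxf7 at 2.83 to 3.36. Nxf1, the general export factor, was 8.98 to 10.30 in every array.

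Of the 8 genes other than Morc1 and Gpat2, none was higher and 2 were lower in mutALK than in MYCN tumours (Rec114 and Stag3), beside 30.8% of all genes called in that comparison, 13.6% higher and 17.2% lower in mutALK. None was higher and 1 was lower in double transgenic than in MYCN tumours (Rec114), beside 12.8% of all genes called, 6.16% higher and 6.66% lower. In double transgenic minus mutALK 1 was higher (Stag3) and none lower, beside 14.4% of all genes called, 8.39% higher and 6.04% lower. The median differences of the 10 genes were -0.22, -0.35 and -0.13 in these 3 comparisons, against 0.00, -0.03 and -0.02 over all genes. These medians include Morc1 and Gpat2, and the tumour arrays compared also took part in the choice of Rec114 and Nxf3. The first 2 comparisons share the MYCN arrays, so their lists are not independent. In the comparisons with adrenal gland, where 42.2% (mutALK), 50.2% (MYCN) and 48.6% (double transgenic) of all genes were called, the members were not counted.

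**Figure D3:**
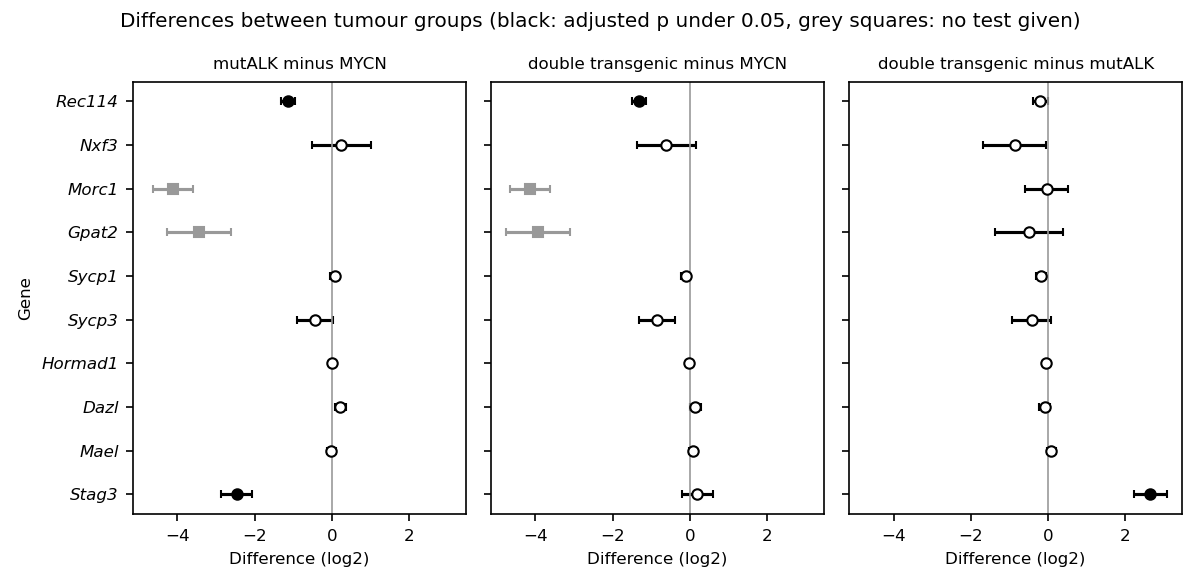
Points give the log2 difference between tumour groups (x axis, first group minus second) for each of the 10 germ cell genes, with bars of ± 1 SE. Black points have a limma adjusted p under 0.05 and grey squares are shown without a test. Rec114 is black at -1.12 and -1.32 against MYCN, Morc1 and Gpat2 are grey between -4.14 and -3.45 there, and Stag3 is black at -2.47 for mutALK minus MYCN and at 2.66 for double transgenic minus mutALK.

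Of a wider list of 81 other germ cell genes, 47 stayed under 5.45 in all 13 arrays. In MYCN minus adrenal 18 were called higher and 9 lower, and 54 were not called. In mutALK minus adrenal 8 were higher and 10 lower, beside 42.2% of all genes called in either direction. In double transgenic minus adrenal 12 were higher and 14 lower, beside 48.6% of all genes, 24.3% higher and 24.2% lower, and for MYCN the share of all genes was 50.2%, 25.4% higher and 24.8% lower. The median difference of the list was -0.01 in mutALK, 0.06 in MYCN tumours and 0.00 in double transgenic minus adrenal, against 0.00, -0.02 and -0.03 over all genes. The 14 lower in double transgenic minus adrenal became 9 without double transgenic 1 and 8 without double transgenic 2. With arrays centred on the median that comparison had 13 higher and 8 lower, and with quantile normalization repeated 16 higher and 8 lower. The comparisons share the adrenal arrays.

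**Figure D4:**
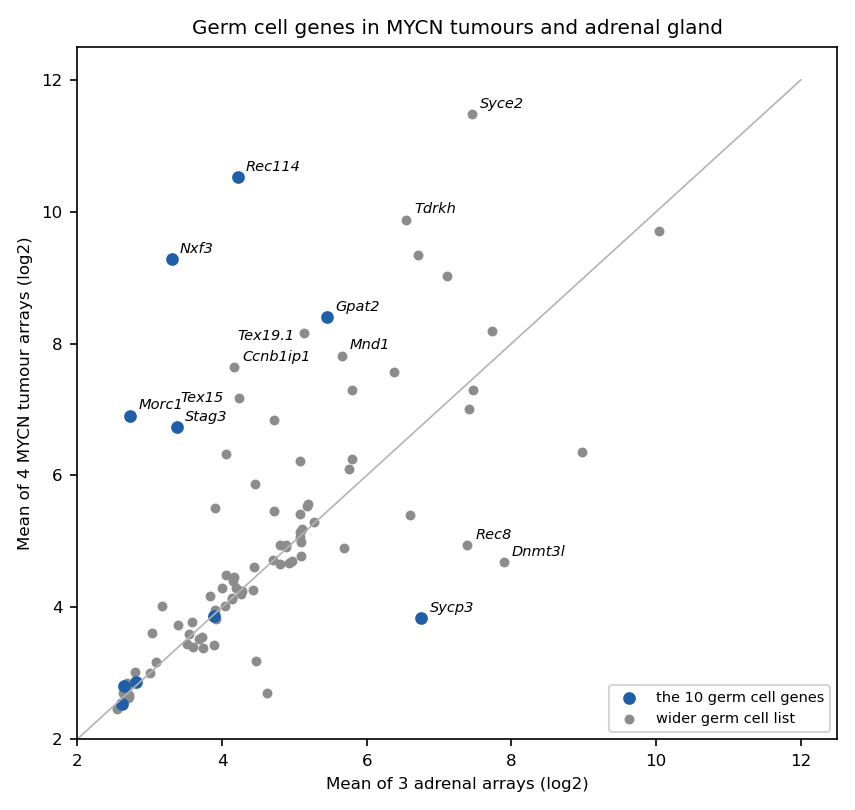
Each point is a germ cell gene, with its mean log2 expression over the 4 MYCN tumours on the y axis and over the 3 adrenal arrays on the x axis, blue for the 10 germ cell genes and grey for the 81 of the wider list. Many points lie near the line of equality in the lower part, Rec114 (10.52 and 4.22) and Nxf3 (9.28 and 3.30) stand far above it, and Sycp3 (3.83 and 6.76) lies below it with Rec8 and Dnmt3l.

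Among recombination genes, 5 of 17 were higher and 2 lower in MYCN tumours than in adrenal gland, where 25.4% of all genes were higher and 24.8% lower. Ccnb1ip1, which regulates crossover sites, was higher by 3.47 ± 0.99 (SE), with 10.01, 5.96, 7.14 and 7.45 in MYCN tumours and 3.92, 4.09 and 4.50 in adrenal glands. That call was lost with sex as a covariate (adjusted p = 0.0842). Psmc3ip and Mnd1, partners that help strand exchange, were higher by 2.63 and 2.16. Mnd1 was 5.48 to 6.08 in mutALK tumours and 5.94 to 7.0 in double transgenic tumours, against 7.78 to 7.84 in MYCN tumours. It was lower in mutALK than in MYCN tumours by -2.08 ± 0.23 (limma adjusted p = 8.311e-05) and in double transgenic than in MYCN tumours by -1.20 ± 0.23 (adjusted p = 0.007276). The 2 genes lower in MYCN tumours than in adrenal gland were Meiob, by -1.28, and Dmc1, by -0.47. Dmc1 read 3.29 to 3.56 in MYCN tumours and 3.68 to 4.29 in adrenal glands, all under 5.45. Meiob was also lower than in adrenal gland in mutALK (-1.21) and double transgenic tumours (-1.13).

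Among synaptonemal complex and meiotic cohesin genes, 1 of 13 was higher and 1 lower in MYCN tumours than in adrenal gland, beside the same 25.4% and 24.8% of all genes. The higher one was Syce2, which lies between the paired chromosome axes, by 4.03 ± 0.22 (SE). It was 9.02 to 9.96 in mutALK, 11.27 to 11.67 in MYCN and 10.69 to 10.87 in double transgenic tumours, and 7.10 to 7.66 in adrenal glands. It was lower in mutALK than in MYCN tumours by -2.11 ± 0.22 (limma adjusted p = 6.373e-05) and higher in double transgenic than in mutALK tumours by 1.40 ± 0.23 (adjusted p = 0.004526). The lower one was Rec8, the meiotic partner of STAG3 in cohesin, which was 4.78 to 5.39 in MYCN tumours against 6.94 to 7.80 in adrenal glands, a difference of -2.45 ± 0.33.

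Among piRNA and transposon silencing genes, 5 of 21 were higher and 4 lower in MYCN tumours than in adrenal gland, beside 25.4% and 24.8% of all genes. Tex19.1, which restrains retrotransposons, measured 5.12, 5.30 and 5.89 in mutALK, 9.95, 7.42, 8.07 and 7.17 in MYCN and 5.14, 5.06 and 5.51 in double transgenic tumours, and 4.99, 5.05 and 5.38 in adrenal glands. As with Morc1, the MYCN tumours stood apart from all other arrays and MYCN 1 was the highest. Tex19.1 was lower by -2.72 ± 0.53 (SE) in mutALK and by -2.92 ± 0.53 in double transgenic than in MYCN tumours (limma adjusted p 0.002391 and 0.005944), and the call for mutALK was lost without the liver arrays (adjusted p = 0.05247). Tdrkh, a scaffold of piRNA trimming, was higher than in adrenal gland by 2.31, 3.34 and 2.63 in the mutALK, MYCN and double tumours. Piwil1, a PIWI protein that binds piRNAs, was 4.92 to 5.58 in mutALK and double transgenic tumours, against 6.02 to 6.41 in MYCN tumours. It was lower by -1.22 ± 0.13 in mutALK and by -0.86 ± 0.13 in double transgenic than in MYCN tumours (adjusted p 7.523e-05 and 0.002445). Dnmt3l, a cofactor of DNA methylation in germ cells, was lower in all 3 tumour groups than in adrenal gland, by -3.05, -3.21 and -3.40, and so was Ddx4, an RNA helicase of germ cells, by -1.24, -1.93 and -1.46. Ddx4 lay above 5.45 in adrenal 3 alone, at 5.50.

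**Figure D5:**
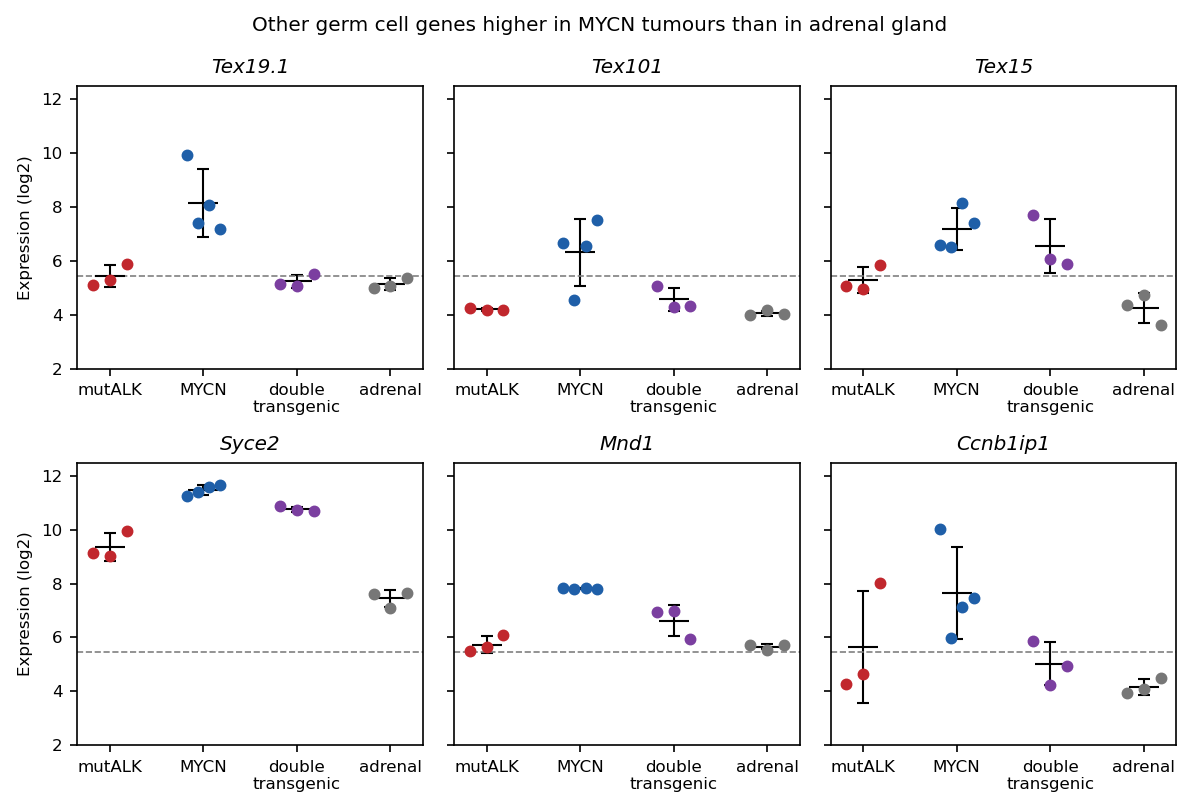
Points give the log2 expression (y axis) of 6 genes of the wider list in each array, with bars at the mean ± SD of mutALK (n = 3), MYCN (n = 4), double transgenic (n = 3) and adrenal gland (n = 3) and a dashed line at 5.45. The 6 were picked from the genes called higher in MYCN tumours than in adrenal gland, so their high MYCN values partly follow from the choice. Of the 81 genes of the list, 9 were called lower there and 54 were not called. MYCN tumours have the highest mean in all 6, Tex19.1 is near the line in the other groups, and Syce2 is above it in all.

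Of the 30 germ cell identity and meiotic entry genes, 7 were higher and 2 lower in MYCN tumours than in adrenal gland, again beside 25.4% and 24.8% of all genes. Tex101, a surface protein of germ cells, measured 6.65, 4.56, 6.56 and 7.51 in MYCN tumours against 3.99, 4.16 and 4.02 in adrenal glands and was higher by 2.26 ± 0.52 (SE, limma adjusted p = 0.003078). Scml2, a Polycomb protein of spermatogonia, was higher by 1.26, 2.12 and 1.88 in the mutALK, MYCN and double tumours than in adrenal gland, and Ythdc2, an RNA helicase needed to enter meiosis, by 1.10, 1.91 and 1.25. The 2 genes lower in MYCN tumours were Dnd1, by -1.20, and Dppa3, by -0.25. Dppa3 read 4.60 to 4.75 in MYCN tumours and 4.80 to 5.03 in adrenal glands, all under 5.45. Dnd1 was also lower than in adrenal gland in mutALK (-1.20) and double transgenic tumours (-1.12). Zbtb16 was lower in mutALK (-1.08) and double transgenic tumours (-1.40), and was not called in MYCN minus adrenal. Between tumours the whole wider list had 1 gene higher and 14 lower in mutALK than in MYCN (beside 13.6% and 17.2% of all genes), and none higher and 10 lower in double transgenic than in MYCN (beside 6.16% and 6.66%). The count of 10 was 6 without MYCN 2, 6 without MYCN 4, 4 without double transgenic 2 and 5 without double transgenic 3. The single higher gene of mutALK minus MYCN became 2 or 3 without adrenal 2 or 3, double transgenic 3, or mutALK 1 or 3. In double transgenic minus mutALK 3 were higher and 1 lower (3 and 0 with arrays centred on the median), beside 8.39% and 6.04% of all genes. These 4 became 1 or 2 without any one of 10 arrays (MYCN 1, 2, 3 or 4, adrenal 1 or 3, double transgenic 1 or 2, mutALK 1 or 2). The 1 lower became 2 without double transgenic 3 or mutALK 3.

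Markers of mature germ cells and of the gonads were measured as well. The mean over 14 spermatid genes was 4.29 to 4.49 in mutALK, 4.31 to 4.45 in MYCN and 4.22 to 4.51 in double transgenic tumours, against 4.31 to 4.50 in adrenal glands. At most 1 of them was called in any comparison, beside 12.8% to 50.2% of all genes. The spermatid means lay under 5.45, where changes may be understated. The mean over 10 egg genes was 4.63 to 4.71, 4.67 to 4.79 and 4.50 to 4.71 in these tumours, against 4.61 to 4.81 in adrenal glands. In MYCN minus adrenal 1 egg gene was called higher and 2 lower, beside 25.4% and 24.8% of all genes. The higher one, Zar1, was 6.90 to 7.45 in MYCN tumours and 5.79 to 6.38 in all other arrays. Its difference from adrenal gland in MYCN tumours was 1.16 ± 0.15 (SE, limma adjusted p = 5.177e-05). The lower ones were Oosp1, by -0.77, and Gdf9, by -0.37. The mean over 9 genes of the somatic cells of the gonad was 5.50 to 6.03 in mutALK, 5.62 to 5.74 in MYCN and 5.23 to 5.6 in double transgenic tumours and 5.78 to 5.91 in adrenal glands.

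A list of 16 genes known to keep germ cell genes silent in body cells was set against adrenal gland. In mutALK tumours 11 were higher and 1 lower, where 21.3% of all genes were higher. In MYCN tumours 15 were higher and 1 lower, beside 25.4% of all genes higher and 24.8% lower. In double transgenic tumours 13 were higher and none lower, beside 24.3% higher and 24.2% lower. The median difference was 0.94, 1.77 and 1.41. Uhrf1, which brings DNA methylation to newly copied DNA, was higher by 3.04, 4.48 and 4.43, Hells, a chromatin remodeller, by 2.56, 3.80 and 3.96, and Dnmt1, the maintenance DNA methyltransferase, by 0.96, 2.08 and 1.97. Of the repressor complex named earlier, E2f6 was called higher in MYCN tumours than in adrenal gland, by 0.73. It was not called in mutALK (0.05) or double transgenic tumours (0.35). Mga was higher by 0.92, 1.95 and 1.705 in the mutALK, MYCN and double tumours, all 3 called. In mutALK minus MYCN 11 of the 16 were lower and none higher, beside 17.2% of all genes lower and 13.6% higher. Uhrf1 was at -1.45 ± 0.26 there (SE, limma adjusted p = 0.001426). In double transgenic minus MYCN 1 was higher and 1 lower of the 16, beside 6.16% and 6.66% of all genes. In double transgenic minus mutALK 9 were higher and none lower, beside 8.39% of all genes higher and 6.04% lower.

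The genes most like each of the 4 leading members were sought among 2657 genes with a range of at least 2 units over the 10 tumour arrays, by Pearson's r over those arrays, which share groups and normalization. For Rec114 they were Gm4371 (r = 0.946), Tead2, a partner of YAP (0.945), and Pcdh15, a cadherin of hair cells (0.939). For Morc1 they were Mfng, a glycosyltransferase that acts on Notch (0.963), Tex19.1 (0.961) and Grm5, a glutamate receptor (0.955), and for Gpat2 Mfng (0.954), Grm5 (0.951) and Tex19.1 (0.949). Mfng measured 6.44 to 6.68 in mutALK, 8.07 to 9.52 in MYCN and 6.31 to 6.69 in double transgenic tumours, and Grm5 3.0 to 3.56, 4.35 to 6.73 and 3.06 to 3.43. Leaving out any one array kept these r values between 0.924 and 0.986 for Morc1 and Gpat2. Leaving out 1 array cannot remove the step between MYCN and other tumours that these genes share, so those r values do not test the likeness.

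The genes most like Nxf3 were Cxcl13, a B cell chemokine (r = 0.951), Ighm, the IgM heavy chain (0.948), and Psmb9, an immunoproteasome subunit (0.948). Cxcl13 measured 9.94, 5.90 and 6.14 in mutALK, 8.48, 6.46, 5.88 and 9.22 in MYCN and 6.92, 6.60 and 5.58 in double transgenic tumours, so mutALK 1, MYCN 4 and MYCN 1 were the highest, as for Nxf3. Cxcl13 was picked by its r with Nxf3, so this shared order partly follows from the choice. In adrenal glands Cxcl13 was 5.96 to 6.61, Ighm 9.36 to 10.21 and Psmb9 8.93 to 9.30, where Nxf3 was 3.27 to 3.35. The part of immune cells in the level of Nxf3 in tumours was not tested.

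The nearest measured genes on the chromosome were compared with the members. Beside Rec114, Nptn, a synaptic adhesion protein, had a mutALK minus MYCN difference of 1.10 ± 0.15 (SE, limma adjusted p = 0.0002478) and a double transgenic minus MYCN difference of 0.68 ± 0.15 (adjusted p = 0.0128), and Neo1, a guidance receptor, one of 0.81 ± 0.10 for double transgenic minus MYCN (adjusted p = 0.0008967), opposite in sign to Rec114. Neo1 was not called in mutALK minus MYCN (0.21 ± 0.10). Beside Morc1, Gm5485 stayed at 2.77 to 3.48 and Trat1, an adaptor of T cells, at 4.17 to 4.78. Beside Gpat2, Astl, an egg protease, stayed at 5.07 to 5.73. Fahd2a, on the other side, was 7.43 to 8.16 in tumours and 9.00 to 9.27 in adrenal glands, with 9.21 in adrenal 2, where Gpat2 read 7.99. Beside Nxf3, Bex2 was 11.85 to 12.52 in tumours and 8.08 to 10.71 in adrenal glands, and 5730412P04Rik 3.41 to 3.94 throughout.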

How the data were processed

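RNA of tumours or adrenal gland was hybridised to Affymetrix arrays, per the labels' protocols. The deposited values are log2 expression made by the authors with RMA in Partek, per the submitters' processing notes, with no versions stated. RMA usually corrects background and brings arrays to a common distribution, so levels are relative within this set, and depth has no meaning for arrays: the 13 arrays limit the precision. Array medians ran from 5.80 to 5.90. Of 45101 probe sets, 64 were controls, 9160 had no symbol and 932 had several and were left out. Each gene took its brightest probe set by mean.

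Group means of the 13 arrays entered 1 linear model (limma 3.58.1, R 4.3.3; 9 residual and 2.28 prior degrees of freedom). Two-sided p-values got a Benjamini-Hochberg adjustment across 18193 genes, and a call needs an adjusted p below 0.05. The code was tested on simulated data. The planned tests of Morc1 and Gpat2 against MYCN tumours are not given, since high values in MYCN tumours led to their choice. Members and lists were chosen with earlier results of these data known. Named besides members were up to 3 called genes per list and comparison by size of difference. The 3 most like genes and nearest neighbours of Rec114, Nxf3, Morc1 and Gpat2 were named too. REC114 partners, Nxf1, Nxf2, Nxf7, E2f6 and Mga were named after their values were seen. Alternatives covered normalization, probe set choice, a filter on dim genes, the variance model, samples, title numbers and sex. Plots used Python 3.11.15 with matplotlib 3.10.9.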

Additional observations from a re-analysis of the deposited data

Results flagged for a closer look

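Within the MYCN group, the only group large enough for a check for single outlying arrays, no member was set apart by 1 array. Of the 83 genes checked, 9 had 1 array far from the other 3 relative to the group's range, and chance alone sets apart about 1 in 20 groups. In MYCN 1, Rec8 was the highest of its group at 5.388, as were Fahd2a, the neighbour of Gpat2, at 8.081 and Slc18a1, a vesicle transporter, at 6.838, while Gdf9, an egg growth factor, was the lowest at 5.928 and Ythdc2 the lowest at 8.664. In MYCN 2, the liver array, Ddc was the lowest at 12.428, Oosp1 the lowest at 3.753 and Tnp2, a spermatid protein, the highest at 3.869. In MYCN 4, Gpat3 was the highest at 5.599.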

How the results depend on the processing

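Each result was recomputed under 26 alternatives. The calls of Rec114 and Stag3 between tumours held under each alternative in which the gene was tested. Leaving out the dimmest 40% of genes left 10916, without Morc1, Gpat2 and Stag3. The members called were then 1 (Rec114) in mutALK minus MYCN, 1 (Rec114) in double transgenic minus MYCN and 0 in double transgenic minus mutALK. Unfiltered and with Morc1 and Gpat2 not counted, they were 2, 1 and 1, so the loss of Stag3 was by construction. With that filter the wider list gave 10 calls in mutALK minus adrenal, 8 in MYCN minus adrenal, 10 in double transgenic minus adrenal, 8 in mutALK minus MYCN and 2 in double transgenic minus mutALK. Array weights gave 42 in MYCN minus adrenal, against 27. The 4 calls of double transgenic minus mutALK became 1 with the compared groups alone, sex as a covariate, title numbers as a random block or averaged, or without adrenal 2 and double transgenic 1, and 2 with the mean of all probe sets. Without 1 array they ranged from 1 to 5, and those of double transgenic minus MYCN from 4 to 14, against 10. The cause was not tested. Member differences that were not called turned sign under some alternatives. In mutALK minus MYCN, Nxf3 was -0.1763 with sex as a covariate, -0.75 without the liver arrays and -0.68 to 0.77 without 1 array, lowest without mutALK 1. Mael was 0.0206 and 0.0467 with title numbers as a block or averaged, 0.1037 without the liver arrays and -0.0721 to 0.101 without 1 array. Hormad1 was -0.10 with arrays centred on the median, -0.0003 with quantile normalization repeated and -0.0172 without the liver arrays. Sycp1 was -0.0459 with centred arrays and -0.0039 to 0.1558 without 1 array. In double transgenic minus MYCN, Stag3 was -0.1664 (without MYCN 4) to 0.4527 and Sycp1 -0.1775 to 0.0105 without 1 array. In double transgenic minus mutALK, Nxf3 was -1.3728 to 0.0776 without 1 array, highest without mutALK 1. Dazl was 0.0047 with centred arrays, 0.0685 with the mean of probe sets and -0.1686 to 0.0407 without 1 array. Mael was -0.0751 without the liver arrays and -0.0177 to 0.1667 without 1 array. Morc1 was 0.0573 with centred arrays, 0.0073 with title numbers averaged and -0.0962 to 0.0519 without 1 array, and Hormad1 was 0.0384 with centred arrays. Neo1 turned to -0.22 in mutALK minus MYCN with the mean of probe sets. No paired analysis was possible because the labels give no number shared between groups: array numbers here follow accession order and only name an array. Blocking on title numbers changed no member call.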

Other observations

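Some germ cell genes outside the naming rule, picked out after their values were seen, were high in single tumours. Syce1, a part of the synaptonemal complex, measured 7.36, 3.89 and 3.72 in mutALK, 6.44, 4.91, 4.78 and 5.90 in MYCN and 3.92, 3.78 and 4.21 in double transgenic tumours, and 3.70, 4.24 and 3.78 in adrenal glands. Its highest arrays, mutALK 1, MYCN 1 and MYCN 4, were also the highest for Nxf3. Tdrd1, a Tudor protein of the piRNA pathway, was 5.78 in MYCN 4 and 3.82 to 4.59 in the other 12 arrays. Ccnb1ip1 reached 8.03 in mutALK 3, against 4.25 and 4.65 in the other mutALK tumours. In adrenal glands Dnmt3l read 8.62, 6.28 and 8.77 and Rec8 7.41, 6.94 and 7.80. Both were lowest in adrenal 2, where Sycp3 was highest.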
